A study of Danio rerio with 9 samples.

Results

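Accessible chromatin that recurred in sperm of injured zebrafish (Danio rerio) males more often than in sperm of uninjured males was gathered into 301 injured-favoured regions, out of 52296 regions with a peak on the chromosomes used. The regions were selected by their peaks: the 15508 peaks of highest score in each library were kept, peaks that overlapped by at least 1 bp in any libraries were merged, and a region on chromosomes 1 to 25 other than 4 was a member when 4 or 5 of the 5 injured libraries and 0 or 1 of the 4 control libraries had a peak in it. The value 15508 is the length of the shortest deposited list. The injured libraries came from spermatozoa of males whose hearts had been injured by freezing (cardiac cryoinjury) 7 days earlier, and the control libraries from spermatozoa of uninjured males. The sources used here do not give strain, age or the number of males per library, so p-values measure only the spread between libraries, which may be technical.

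ATAC-seq marks DNA that the transposase Tn5 can reach, and a peak is a stretch where its insertions pile up. Sperm nuclei are compact, and in zebrafish the DNA stays packaged by histones rather than by protamines, so nucleosome-free or loosely packed stretches can still be mapped. Accessible sites in sperm are studied as one possible carrier of paternal information into the embryo. No genome sequence or gene annotation of GRCz11, the build named in the submitters' processing notes, was used here, so regions are given by coordinates alone, without sequence, gene or exon.

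The labels give 4.6 to 29 M reads retained per library without saying which library had how many, so depth per library is unknown, and a region without a peak was not detected rather than shown to be closed. Between 15508 and 29622 peaks had been deposited per injured library and between 30126 and 45277 per control library. The lowest score kept lay between 13 and 31 among injured libraries and between 29 and 42 among control libraries, so the last kept peaks had lower scores in most injured libraries. Because the group labels chose the regions, the detection, rank and width given below are descriptions without a test.

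Most members only just met the rule. The largest class, 181 regions or 60.1%, had a peak in 4 injured libraries and 1 control library. A further 67 regions (22.3%) had peaks in 4 injured and 0 control libraries, and 47 (15.6%) in 5 injured libraries and 1 control library. Complete separation, 5 injured libraries and 0 control libraries, was met by 6 regions (1.99%). Just outside the rule lay 313 regions with 4 injured and 2 control peaks, 79 with 5 and 2, 606 with 3 and 1 and 476 with 3 and 0. With 4 injured peaks, the class with 2 control peaks (313) was thus larger than that with 1 (181), and with 5 injured peaks 79 compared with 47.

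The number of members was not high for these libraries. Members made up 0.576% of all 52296 regions and 6.13% of the 4914 regions with peaks in 4 to 6 libraries, the only numbers of libraries that can meet the rule. When the labels were assigned to the 9 libraries in all 126 ways, the count ranged from 216 to 707 with a median of 380.5, and 107 assignments, the true one included, gave at least 301 (exact one-sided permutation p = 0.849). For complete separation the 6 regions compared with a range of 1 to 52 and a median of 10 (exact one-sided permutation p = 0.857). Both counts lay below the median over the assignments.

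This permutation test is a blunt one for the rule. A region with peaks in 5 libraries, as 187 members had, meets the rule in 21 of the 126 assignments, since exchanging 1 library keeps it inside. Injured libraries also held fewer of the recurrent regions: of the 4446 other regions with peaks in 4 to 6 libraries, each injured library had a peak in 41.8% to 52.9% and each control library in 55.3% to 65.4%. These shares leave out the 301 members and the 167 regions favoured in control libraries, so part of the gap comes from the selection. A low count under the true labels thus does not show that regions favoured after injury are absent.

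**Figure D1:**
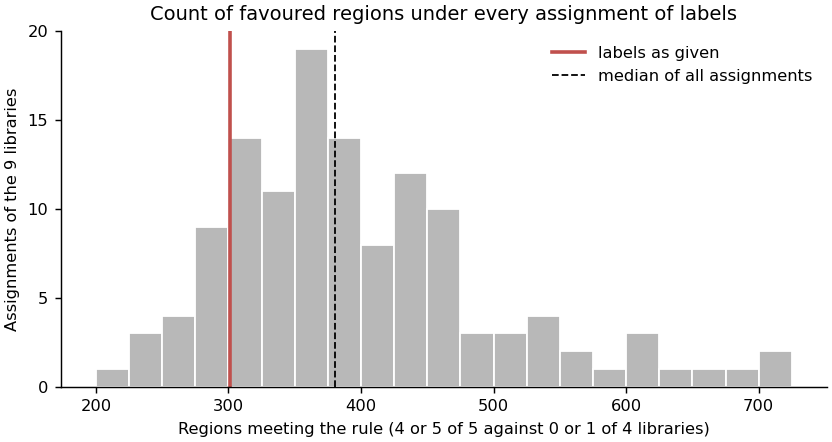
Number of regions meeting the rule (x axis) for all 126 assignments of injured and control labels to the 9 libraries, as a histogram of assignments (y axis). The red line marks the 301 regions under the labels as given, left of the dashed median of 380.5.

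With the roles exchanged, 167 regions (0.319% of all regions) had a peak in all 4 control libraries and in 0 or 1 injured library. That count lay near the top of its 126 assignments, which had a median of 72 and a maximum of 242 (exact one-sided permutation p = 0.0238, adjusted over both counts 0.0476). Relabelling does not adjust for the larger share of other recurrent regions that each control library held. A high control-favoured count cannot be told apart from that difference in detection between the libraries. Without injured library 3, 4 or 5 it was 218, 252 and 237 (exact permutation p = 0.0571 each), and without control library 1, 3 or 4 it was 372, 320 and 274 (exact permutation p = 0.0536, 0.0714 and 0.0536). Without injured library 1 or 2 it was 280 each (exact permutation p = 0.0429 and 0.0286), and without control library 2 it was 474 (exact permutation p = 0.0179). All of these have fewer assignments and fewer libraries that had to agree. Whether the 2 directions differ from each other was not tested.

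The rule requires at least 4 of the injured libraries, so each of them had a peak in most members. Injured libraries 1 to 5 had a kept peak in 244, 246, 252, 265 and 250 of the 301 regions, so the library missing from the 248 regions with 4 injured peaks was number 1 in 57, number 2 in 55, number 3 in 49, number 4 in 36 and number 5 in 51. The 228 regions with 1 control peak had it in control library 1 in 58 cases, library 2 in 89, library 3 in 33 and library 4 in 48. Control library 2 thus held 39.0% of these peaks.

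Members were of middling strength. Rank 1 is the highest score of a library, and the median rank of the members' best peak was 8197.5, 8495.5, 5763.5, 6872 and 6789.5 in injured libraries 1 to 5. In control libraries 1 to 4, over the members with a peak there, it was 9843.5, 5353, 8122 and 7975. These medians averaged 7224 ± 1119 over the injured libraries (SD, n = 5) and 7823 ± 1853 over the control libraries (SD, n = 4). For the other regions in 4 to 6 libraries the corresponding means were 6527 ± 313 (SD, n = 5) and 6492 ± 205 (SD, n = 4). Over all their libraries, members had a median rank of 7301, regions favoured in control libraries 5900, other regions in 4 to 6 libraries 6938, and regions detected in all 9 libraries 1460.

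Strength also varied widely within a member. The best injured rank had a median of 3372 over the members and the worst injured rank a median of 12262. In 158 members (52.5%) the worst rank exceeded 3 times the best. In 220 members (73.1%) at least 1 injured peak ranked past 10000, and in 55 (18.3%) at least 1 was among the last 1000 kept, ranks 14509 to 15508. In 10 members (3.32%) every injured peak ranked within the best 5000. Where a control library had a peak, it was often as strong: in 102 of 228 regions (44.7%) the control peak ranked better than the median of the injured peaks, and in 38 (16.7%) better than each of them. None of the values in this paragraph was computed for other regions. They describe the members and cannot be called particular to them.

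**Figure D2:**
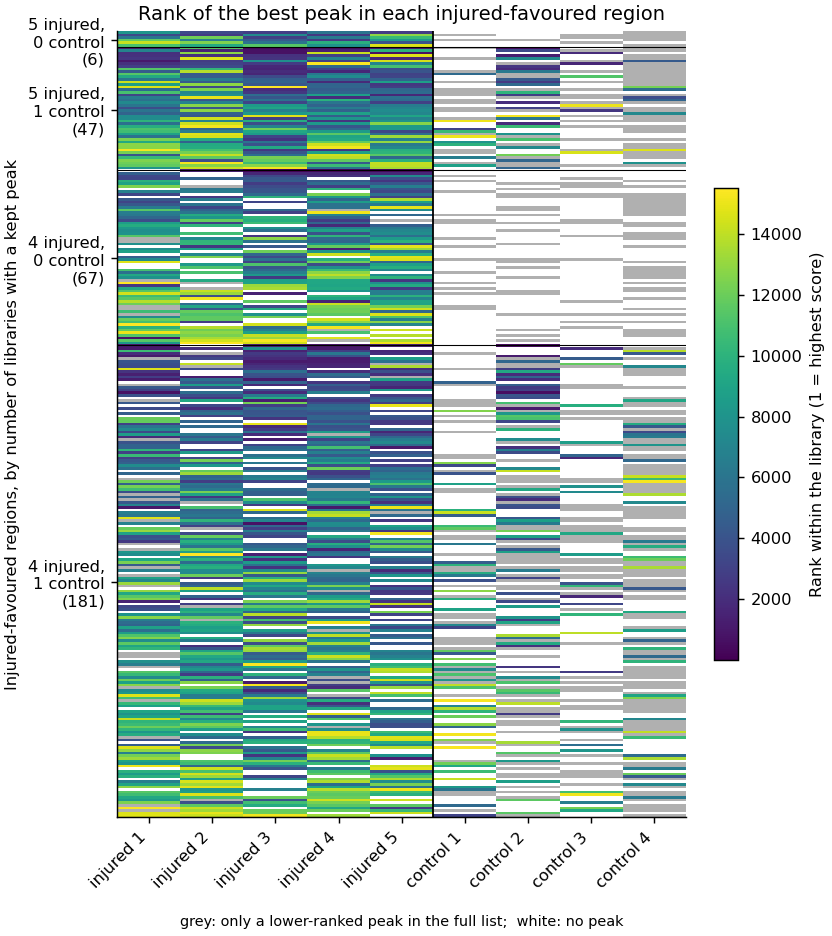
Rank of the best peak in each of the 301 injured-favoured regions (rows, grouped by the number of libraries with a kept peak) in the 5 injured and 4 control libraries (columns), with dark colours for high scores. Grey cells, many of them in control library 4, mark regions with only a peak ranked past 15508, and white cells mark regions with no peak.

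Of the 6 completely separated regions, chr5:69543923-69544159 (237 bp) ranked best. Its peaks stood at ranks 8097, 3398, 2872, 5967 and 2751 in injured libraries 1 to 5, and the only control peak was at rank 30819 of control library 4 in the full lists. The 5 injured peaks shared 172 bp. They coincided more closely than in a typical member, where the bases common to the injured libraries' best-ranked peaks had a median of 117 bp.

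The next of these regions was chr22:7617406-7617791 (386 bp), at ranks 3417, 2625, 7413, 2578 and 12877 in injured libraries 1 to 5. Control libraries 1, 3 and 4 had peaks there too, at ranks 25985, 17063 and 22811 of the full lists. In the full lists control library 2 alone had no peak there.

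In chr13:11401616-11402366 (751 bp) the injured ranks were 6044, 12142, 2919, 6429 and 10449, and control libraries 3 and 4 had peaks at ranks 16826 and 40264. In chr11:8066774-8067340 (567 bp) they were 11727, 6634, 4502, 2740 and 8411, and control libraries 1, 2 and 4 had peaks at ranks 24075, 29496 and 35239. Both regions thus had low-ranked peaks in several control libraries.

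In chr16:5936753-5937180 (428 bp) the injured ranks were 14174, 12498, 5918, 9825 and 3937, with a control peak at rank 25774 of library 3. In chr18:37084214-37084806 (593 bp) they were 11049, 9500, 11388, 8056 and 14664, with a control peak at rank 44450 of library 4. These 2 regions kept the rule in the full lists, and the best injured peak of the region on chromosome 18 was at rank 8056.

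The strongest member by median rank was chr7:55079559-55080355 (797 bp). Its peaks stood at ranks 1430, 143, 210 and 341 in injured libraries 2 to 5. Injured library 1 and all 4 control libraries had no peak there at any rank. This region was thus strong in 4 libraries and undetected in 5, one of them injured.

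A similar pattern was seen in chr17:34270682-34271140 (459 bp). Injured libraries 1, 3, 4 and 5 had peaks at ranks 4747, 1637, 1675 and 1705, and injured library 2 and all 4 control libraries had none at any rank. The 4 peaks shared 359 bp. Strong peaks in exactly 4 libraries were seen in other combinations of libraries too. In all, 27 regions held by exactly 4 equal-length lists had a median rank within 1000, 25 of them had no peak in any other full list, and 1 of the 27 was a member. Of all 2225 regions held by exactly 4 equal-length lists, at any rank, 67 were members. With only 1 member among the 27, the 2 shares cannot be compared.

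The other 4 regions named by their order had 4 injured peaks and 0 kept control peaks, with ranks between 2088 and 9956. In chr9:45564208-45564752 (545 bp) injured libraries 1, 3, 4 and 5 had ranks 3326, 3332, 2088 and 7475, and control library 1 had rank 19167. In chr15:19967435-19967730 (296 bp) injured libraries 1, 2, 3 and 5 had ranks 3227, 4972, 4196 and 3711, and control library 3 had rank 18363. Both regions were chosen without kept control peaks. Any control peak in them therefore had to rank behind every kept injured peak, so that order follows from the choice.

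In chr16:38150482-38151089 (608 bp) injured libraries 1, 3, 4 and 5 had ranks 9956, 4496, 4389 and 2482, and control libraries 1 and 4 had ranks 21542 and 29719. In chr16:24890055-24890573 (519 bp) the same injured libraries had ranks 8958, 2758, 5545 and 4275, and control libraries 2 and 3 had ranks 19470 and 18415. Both left the rule once lower-ranked control peaks were admitted.

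**Figure D3:**
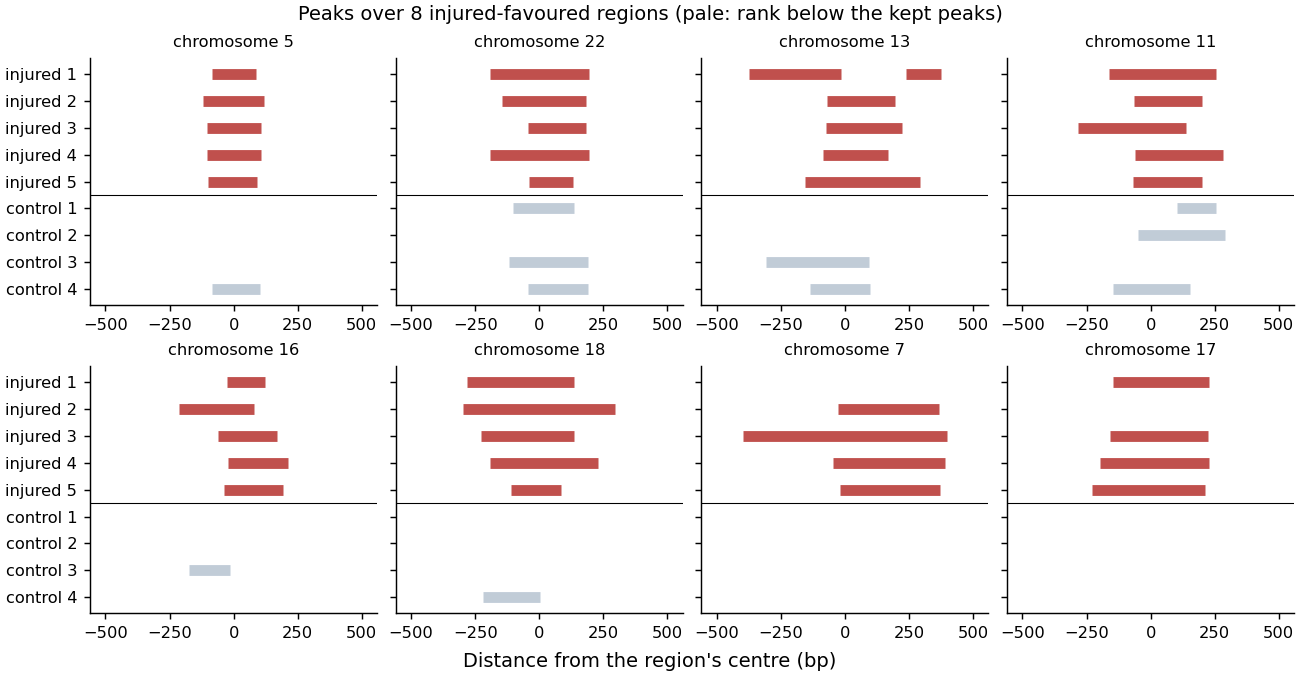
Peaks over the 6 regions with 5 injured and 0 control libraries and the 2 best-ranked regions with 4 and 0, each drawn from its start to its end as distance from the centre of the region in bp (x axis), 1 row per library. Kept peaks are in full colour and peaks ranked past 15508 are pale. In the regions on chromosomes 7 and 17 no control library had a peak at any rank.

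Adding back the lower-ranked peaks brought control peaks into most members. In the full lists 95 members (31.6%) still met the rule. Control peaks were then present in 0 control libraries for 20 members, in 1 for 75, in 2 for 104, in 3 for 73 and in 4 for 29, against 73 with 0 and 228 with 1 at equal length. On the injured side, 106 members had a peak in all 5 full lists, against 53 at equal length, and 17 members (5.65%) had a peak in all 9 full lists. Of the 167 control-favoured regions, 106 (63.5%) met their own rule in the full lists, where the injured lists had fewer peaks to add.

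The control lists were longer and so had more peaks to add. Of the 976 combinations of a member and a control library without a kept peak, 390 (39.96%) had a lower-ranked peak, and of the 248 such combinations with an injured library, 53 (21.4%) had one. For the other regions in 4 to 6 libraries these shares were 35.7% in control and 12.8% in injured libraries. Per control library, 1 to 4, the share for members was 29.6%, 40.1%, 28.7% and 61.7%, and control library 4 also had the longest list. Injured library 3, whose list is the one that set the length, could add none. By these pooled shares members gained lower-ranked peaks somewhat more often than other recurrent regions, in both groups. Injured library 2 (18.2% against 18.5%) and control library 3 (28.7% against 29.6%) went slightly the other way. These differences were not tested.

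**Figure D4:**
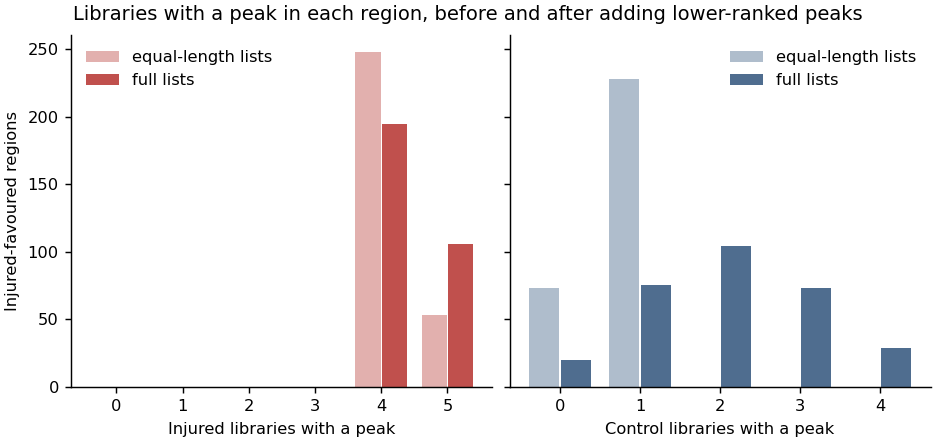
Number of injured-favoured regions (y axis) by the number of injured (left) and control (right) libraries with a peak (x axis), in the equal-length lists (pale bars) and in the full lists (dark bars). The control bars spread out to 4 libraries, with 29 regions there.

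The 20 members without a control peak in the full lists lay on 14 chromosomes and were 274 to 830 bp wide, with a median of 463 bp. Their median injured ranks ran from 275.5 to 14828.5, with a median of 8818.25, so apart from the regions on chromosomes 7 and 17 described above they were not strong. All had 4 kept injured peaks. In 2 of them, singled out after their values were seen, the remaining injured library had a lower-ranked peak, giving 5 injured and 0 control full lists: chr21:45920305-45920652, where injured library 1 had rank 19651, and chr7:1084047-1084591, where it had rank 25270. The member of worst median rank, chr24:27660358-27660703 (346 bp, ranks 8201, 15439, 14516 and 15141 in injured libraries 1, 2, 3 and 5), was also among the 20.

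Members were wider than most regions but not wider than the most recurrent ones. A region spans all its merged peaks, so its width tends to grow with the number of libraries that have a peak. Of all regions, 19642 had a peak in 1 injured library only and 13028 in 1 control library only. The contrast with all regions thus follows in large part from the rule. The width of members ran from 220 to 2512 bp with a median of 582 bp, against 446 bp for regions favoured in control libraries, 516 bp for other regions in 4 to 6 libraries, 775 bp for regions in all 9 libraries and 284 bp for all regions. Of the members, 67 had a peak in exactly 4 libraries, against 2225 of all 4914 regions in 4 to 6 libraries. The contrast with other regions in 4 to 6 libraries is thus not at an equal number of libraries. A width of 1000 bp or more was reached by 24 members (7.97%), against 7.65% of other regions in 4 to 6 libraries. The median width of a library's best-ranked peak within members averaged 310 ± 33.5 bp over injured libraries (SD, n = 5) and 355 ± 37.0 bp over control libraries (SD, n = 4). For all kept peaks the median width averaged 268 ± 30.4 bp over injured libraries (SD, n = 5) and 286 ± 36.4 bp over control libraries (SD, n = 4). Peaks in members were thus wider than kept peaks at large in both groups, but this was not particular to members. The median peak width was 321.5 bp in members, 307 bp in other regions in 4 to 6 libraries and 508 bp in regions in all 9 libraries.

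In 234 members (77.7%) the injured peaks, taking the best-ranked peak of each library, had at least 1 base in common. In the others these best-ranked peaks had no base common to all of them. Such a region can still have a shared core through another kept peak of a library, as in chr11:41365369-41366089. Among the 313 regions with 4 injured and 2 control peaks the share was 81.2%, and among regions in all 9 libraries, taking injured peaks alone, 89.6%. The centres of the best-ranked injured peaks of a member spread over a median of 189.5 bp, against 167.5 and 126 bp in those sets. The 313 regions each had 4 injured peaks, whereas 53 members had 5, so these values are not like for like. The widest member, chr9:9447011-9449522 (2512 bp), was a chain of 13 peaks with no base shared by all the injured libraries. It had injured ranks 2435, 14720, 2355, 7080 and 1807 and control rank 7401 in library 2. Of the 2 narrowest members, both of 220 bp, chr10:5424393-5424612 had injured ranks of 4253, 5974, 5841 and 6458 in libraries 1, 2, 4 and 5, which all shared 131 bp. The other was chr23:25336614-25336833, with 4 injured peaks and 1 control peak.

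Members were found on each of the 24 chromosomes used. Chromosome 7 held the most, 25 members or 8.31%, followed by chromosome 10 with 22 (7.31%), chromosome 11 with 21 (6.98%) and chromosome 16 with 20 (6.64%). The shares of other regions in 4 to 6 libraries on these chromosomes were 5.69%, 4.72%, 5.22% and 5.98%. For all regions they were 6.12%, 5.26%, 4.68% and 6.20%, and for control-favoured regions 7.78%, 4.79%, 3.59% and 3.59%. Chromosome 7 thus held the most of both favoured sets. Chromosome 12 held the fewest, 7 members (2.33%, against 3.62% of other regions in 4 to 6 libraries). Up to the last peak of each chromosome, chromosome 10 had 0.484 and chromosome 11 had 0.462 members per Mb, the highest values, and chromosomes 9 and 12 had 0.142 each. Chromosome 9 held 2.66% of members and 2.80% of all regions, and chromosome 12 held 2.33% and 3.46%. The density of all regions per Mb was not set beside these values, so they cannot be read as particular to members. Of the 22 members on chromosome 10, 11 still met the rule in the full lists, against 7 of 25 on chromosome 7 and 5 of 21 on chromosome 11. Over all chromosomes it was 95 of 301 members, and the highest share was on chromosome 25, with 5 of 8.

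**Figure D5:**
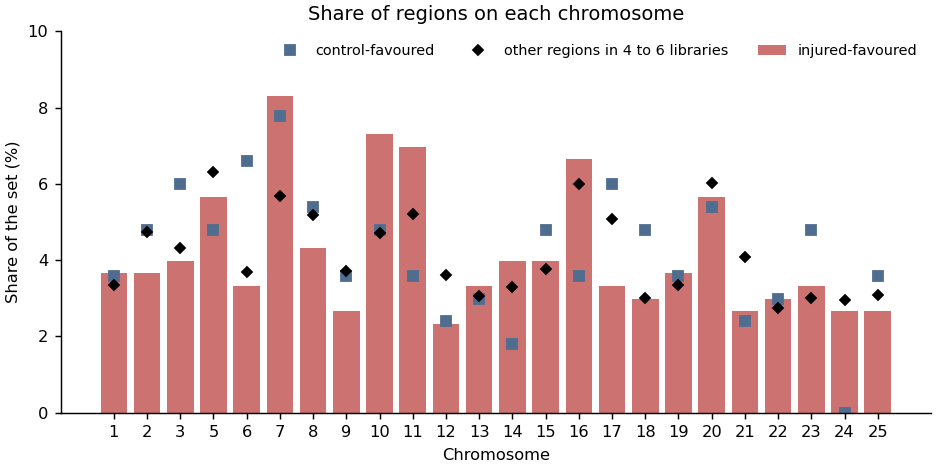
Share of injured-favoured regions on each chromosome in percent (bars), with the shares of control-favoured regions (squares) and of other regions in 4 to 6 libraries (diamonds). Bars exceed the diamonds most on chromosomes 7, 10 and 11, and chromosome 24 held 0 control-favoured regions.

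Another member lay within 100 kb of 33 members (10.96%), and the median distance to the next was 1026882 bp. For the 167 control-favoured regions these values were 7.19% and 2288049 bp, and for the 4446 other regions in 4 to 6 libraries 63.3% and 54763 bp. Larger sets lie closer together by their number alone, so these distances were not compared further. Of the 1 Mb windows with members, 202 held 1, 38 held 2, 5 held 3 and 2 held 4. Near the ends of chromosomes, within 500 kb of the start or the last peak, lay 13 members (4.32%), against 3.71% of other regions in 4 to 6 libraries. The closest neighbours were chr16:49608196-49608649 and chr16:49609425-49609969, 775 bp apart, and a pair on chromosome 11 near 5004031 was 7412 bp apart.

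A window with 4 members was 31 to 32 Mb of chromosome 10, which had 7 other regions in 4 to 6 libraries and 120 regions in all. Each of its members had 5 injured peaks and 1 control peak. The first, chr10:31072694-31073217, had injured ranks 11411, 4267, 1661, 6178 and 3035 and a kept control peak at rank 5374 of library 1. The second, chr10:31274498-31275608, had injured ranks 7360, 6862, 3197, 6027 and 2953, and its control peak at rank 2030 of library 2 was stronger than all of them.

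The third, chr10:31294415-31295047, had injured ranks 12752, 9600, 9396, 15220 and 7113 and a control rank of 7416 in library 2, and the fourth, chr10:31306503-31307404, had 15302, 10924, 2500, 2347 and 9808 and a control rank of 14675 in library 4. In the full lists 2 to 4 control libraries had a peak in each of these regions, and none of the 4 met the rule any more.

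The other window with 4 members was 41 to 42 Mb of chromosome 11, with 126 regions in all. There chr11:41365369-41366089 and chr11:41966269-41967010 met the rule in the full lists, and chr11:41610947-41611953 and chr11:41743927-41744703 did not. The strongest of them, chr11:41966269-41967010 (742 bp), had ranks 1038, 2595, 2351 and 3926 in injured libraries 1 to 4 and rank 1193 in control library 2. Its control peak was stronger than all but 1 of its injured peaks.

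By the median, members lay somewhat farther from the regions detected in all 9 libraries than the compared sets did. The median distance from a member to the nearest region detected in all 9 libraries was 451037 bp, against 388086 bp for regions favoured in control libraries and 395420 bp for other regions in 4 to 6 libraries. Such a region was within 10 kb of 6 members (1.99%), against 5.99% of control-favoured and 7.42% of other regions in 4 to 6 libraries. These are descriptions of the sets and were not tested.

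The surroundings of members were compared between the groups as well. Neighbouring regions that met the rule were members themselves and so were left out. The members also stayed as chosen under the true labels while the libraries were relabelled. The p-values below therefore cannot decide whether the surroundings differ between the groups. With the members' own peaks left out, the share of kept peaks within 100 kb of a member was 9.54% ± 0.326 over injured libraries (SD, n = 5) and 8.94% ± 0.892 over control libraries (SD, n = 4). The difference was 0.600 percentage points (exact two-sided permutation p = 0.222, adjusted over 3 distances 0.333). Injured libraries ranged from 9.10% to 9.95% and control libraries from 7.99% to 10.03%, so the groups overlapped. Within 10 kb the injured share was 1.23% ± 0.0562 (SD, n = 5) and the control share 1.22% ± 0.150 (SD, n = 4; exact permutation p = 0.937, adjusted 0.937). Within 1000 kb the injured share was 44.9% ± 1.68 (SD, n = 5) and the control share 42.6% ± 1.66 (SD, n = 4; exact permutation p = 0.0794, adjusted 0.238).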

How the data were processed

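The analysis started from the peaks that the authors deposited, a list for each library with positions and a peak score. Per the labels, 100000 spermatozoa went into a library, read from both ends over 100 bp. Among the tools in the submitters' processing notes are MACS2, Bowtie2 and Picard, with the build GRCz11 and no settings. How reads were shifted, how duplicates were treated, the peak threshold and the scale of the score were not stated there, so peaks were only ranked within their own list by score. Peaks were taken as called per library, per the peak names. Depth is unknown, and no interval was derived from it.

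Ties in score were ordered by width, then sequence name and start. Coordinates are 1-based. Counts under the 126 assignments of labels were compared with exact permutation tests, one-sided for a higher count, with a threshold of 0.05. Regions were named by a rule: those with 5 injured and 0 control peaks, then by difference in detection and median rank up to 12, plus the members of the densest 1 Mb windows, the widest, the narrowest and those of best and worst median rank. The members, lists and tests were chosen with earlier results of these data known, and the test of the surroundings, the control-favoured counts without 1 library and the omission of injured libraries 3 and 5 together were added after the data had been seen. Genes were not assigned, because the gene table used here is of another build. Merging, the rule and the relabelling were tested on simulated data. Python 3.11.15, pandas 2.3.3, numpy 2.4.6, scipy 1.17.1 and matplotlib 3.10.9 were used.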

Additional observations from a re-analysis of the deposited data

How the results depend on the processing

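The permutation p of the number of injured-favoured regions stayed above 0.05 under every alternative run, between 0.729 and 0.982, but the number itself and the regions behind it depended on how many peaks were kept. With the 10000 and the 5000 best-ranked peaks of each list there were 180 and 76 regions, which overlapped 103 and 13 of the 301 members, and the mean of the injured libraries' median ranks was 4983 at 10000 peaks. In the lists as deposited there were 242, which overlapped 95 of the members (exact permutation p = 0.976). Every injured list was shorter than every control list in that run, so its p cannot separate the labels from list length. Requiring 5 injured and 0 control libraries gave 6 regions, with a median width of 497.5 bp and 0% on chromosome 7. Leaving out any 1 library gave 461 to 769 regions, without control library 3 and without injured library 1 at the ends, because fewer libraries then have to agree. Without injured libraries 3 and 5 together there were 2185. In these runs the rule asked for 1 fewer injured peak per injured library left out, and it still allowed 1 control peak. The counts are thus from a looser rule than that of the members. Merging peaks up to 100 bp apart, an overlap of 50 bp, other ties, equal length on the chromosomes used, chromosome 4 and all sequences gave 294 to 402. Within 10 kb of another member lay 4 members, and within 1 Mb 149. With the replicate block, relabelling within the 4 pairs that share a number, the count was 301 as before and the exact permutation p was 0.875 over 16 assignments. Libraries of the same number did not deviate together (correlations of -0.0483 to 0.0380 over regions, against -0.0438 to 0.0677 for other pairs). No sign of pairing by number was thus seen. Low correlations cannot exclude that a number marks a shared day or batch, and the labels do not say. Unknown depth limits all of these counts.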
